A study of Homo sapiens with 18 samples.

Results

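SNK-10 cells, a line of NK/T cell lymphoma, were given icaritin or the solvent DMSO for 12 h, and the comparison of these arms is the subject of this text. It holds the 6 SNK-10 samples of the 18 samples of the series, 3 with DMSO and 3 with icaritin, chosen by the cell line, treatment and time in their titles. The other 12 samples are of the lines SNT-8 and SNT-16, treated in the same way. All cells are labelled wild type, so no group carries an engineered allele, and the dose of icaritin is not given in the sources used here. The title of the series names the mitotic kinase PLK1, the DNA damage response and the GELOX regime of gemcitabine, oxaliplatin and asparaginase, and the comparison asks which RNAs of SNK-10 cells moved with icaritin. Nothing in the labels says that replicates were separate cultures, so p-values measure the spread between replicate libraries, which may be technical. This spread was estimated jointly over all 18 libraries, those of SNT-8 and SNT-16 included. Each arm is a single cell line, and values are of RNA only.

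Icaritin is a prenylated flavonoid obtained from Epimedium plants. NK/T cell lymphoma is a tumour of natural killer or T cells that carries Epstein-Barr virus and keeps the cytotoxic granules of its cell of origin. Cells short of amino acids, or with stressed mitochondria or unfolded protein, phosphorylate the initiation factor eIF2, which lowers general translation and favours the transcription factor ATF4; its targets import and make amino acids and charge tRNA. The factor MYC works in the other direction and drives nucleolar genes that build ribosomes. p53 and the FOXO factors raise genes that halt the cell cycle, and mitotic genes such as PLK1 are switched on together in the G2 phase through the CHR element of their promoters.

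The expected counts of the 6 libraries summed to between 9526431 and 9800409. Of 19849 genes listed in at least 1 SNK-10 library, or 21662 in the series, 14396 had enough counts to be tested. Levels are CPM, counts scaled to libraries of equal size with TMM factors; changes are log2 fold changes of icaritin against DMSO. Adjusted p-values come from the quasi-likelihood test of edgeR with Benjamini-Hochberg adjustment over the 14396 genes, and "rose" and "fell" are used for an adjusted p under 0.05. Of the NK cell markers looked up, 10 of 11 were at 1 CPM or more in all 6 libraries, with a summed level of 572 to 620 CPM with DMSO and 601 to 614 CPM with icaritin; KLRF1 was at or near 0. Of 11 T cell markers only 6 were in the files used here, and 4 of these reached 1 CPM in every library, CD3E among them. CD5 stayed under 1 CPM, while genes of the T cell receptor chains were not analysed here. Markers of other cells were low: SDC1 was listed at 0, markers of red cells and platelets summed to at most 0.736 CPM, and those of epithelial, fibroblast and endothelial cells went from 17.4 to 21.9 CPM with DMSO to 23.9 to 25.8 CPM with icaritin. Of 10 myeloid markers 5 reached 1 CPM, summing to 71.9 to 82.2 CPM with DMSO and 66.2 to 82.8 CPM with icaritin. The sum over 10 B and plasma cell markers, 8 of them in the files, went from 75.1 to 81.5 CPM to 38.8 to 44.2 CPM, nearly all of it MZB1. The part of these marker shifts in the results below was not tested. The mitochondrial ribosomal RNA genes RNR2 and RNR1 took 1.5% to 1.55% and 0.134% to 0.138% of the counts with DMSO, and 4.59% to 5.12% and 0.427% to 0.475% with icaritin. With both left out of the scaling, 3521 genes rose and 3447 fell, against 3511 and 3459 with them. Icaritin replicate 3 stood slightly apart from the other icaritin libraries, with a chi-square per gene of 3.4 and 4.13 against them where every other pair of SNK-10 replicates gave 1.53 to 1.8.

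After scaling, close to equal numbers of genes were higher and lower with icaritin. TMM scaling takes the typical gene as unchanged, so this balance and the median change below are partly set by it. Levels are relative, and a change in total RNA per cell would not show. Of the 14396 genes tested, 48.4% passed the threshold: 3511 genes (24.4%) rose and 3459 (24.0%) fell. A change of at least 2-fold was seen for 353 risen genes (2.45%) and 356 fallen genes (2.47%), or for 117 and 131 with limma on log2(FPKM + 1), and the median absolute log2 change of genes past the threshold was 0.43. In 6650 of them (95.4%), the 3 icaritin libraries lay wholly on 1 side of the 3 DMSO libraries; over all genes tested, 27.8% lay wholly higher and 27.4% wholly lower with icaritin. The median change of all tested genes was 0.01. Of 5621 genes compared by the mean length of their counted transcripts, which had to differ between libraries, 189 (3.36%) were shorter and 98 (1.74%) longer with icaritin. The shares of risen and fallen genes are the background against which the gene lists below are read.

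**Figure D1:**
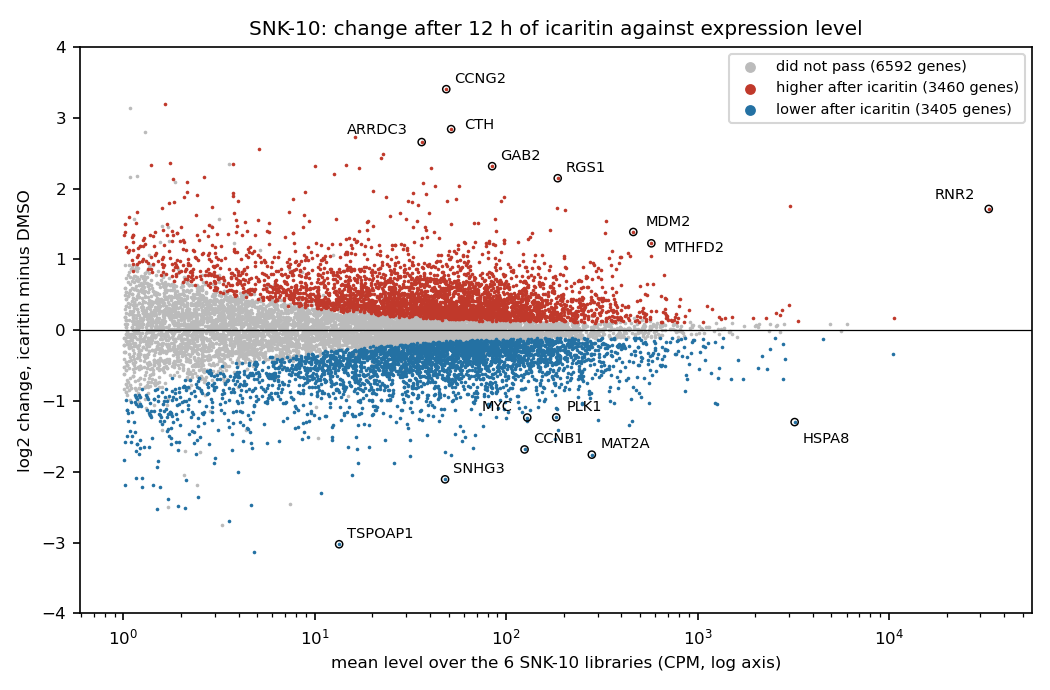
Log2 change of icaritin against DMSO in SNK-10 cells (vertical axis) against the mean level over the 6 libraries in CPM (horizontal log axis), for the 13457 genes with at least 1 CPM; 2 of these lie outside the axis. Red points rose, blue points fell and grey points did not pass; genes with high levels pass the threshold at smaller changes, and RNR2, at the right edge, stood at a log2 change of 1.71.

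Leaving aside genes under 10 CPM, CCNG2 rose most; it encodes cyclin G2, an atypical cyclin that slows the cell cycle and is known as a FOXO target. It stood at 9.47, 7.87 and 7.82 CPM in the DMSO libraries and at 83.7, 85.7 and 97.3 CPM in the icaritin libraries, a log2 change of 3.40 (SE 0.111, adjusted p = 4.85e-22). The arms were far apart. Next came CTH, the enzyme that releases cysteine in transsulfuration, with 12.3, 11.6 and 13.9 CPM against 94.1, 82.4 and 95 CPM and a log2 change of 2.84 (SE 0.0780, adjusted p = 3.66e-27). KLHL24, an adaptor of a ubiquitin ligase, rose by 2.72, and the alpha-arrestin ARRDC3, which guides membrane receptors to degradation, by 2.66 on the log2 scale. CREBRF, a regulator of the CREB3 factors, went from 6.63, 6.71 and 7.18 CPM to 39, 30.8 and 45.7 CPM, with no overlap of the arms. The p53 target TP53INP1 (2.44), the retinal reductase gene DHRS3 (2.33), the adaptor gene GAB2 (2.32), YPEL2 (2.30) and ERN1, which encodes the stress sensor IRE1 of the endoplasmic reticulum (2.29), followed, with log2 changes in brackets. The 15 largest rises of genes with at least 10 CPM also held CHAC1, RGS1, TSC22D3, DUSP5 and GPT2, described with their groups.

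The largest fall among genes with at least 10 CPM was that of TSPOAP1, a scaffold protein gene, from 21.4, 24.6 and 25.7 CPM to 2.92, 3.01 and 2.85 CPM (log2 change -3.02, SE 0.197, adjusted p = 1.64e-12). Its antisense neighbour TSPOAP1-AS1 fell by 0.22, and because the counting is not stated to use strand, reads of the pair cannot be told apart with certainty. HPDL, a dioxygenase-like mitochondrial protein gene, went from 18.9, 15.5 and 19.4 CPM to 3.35, 4.62 and 2.96 CPM (-2.30, SE 0.168). Among the others were the zinc importer gene SLC39A10 (-2.05), the host RNAs SNHG3 (-2.11) and DANCR (-1.88), DEPP1 (-1.87), the exosome subunit gene EXOSC4 (-1.68) and the transcription factor gene SOX12 (-1.65). MAT2A makes S-adenosylmethionine, the methyl donor of the cell. It stood at 438, 431 and 428 CPM with DMSO and at 136, 130.5 and 117 CPM with icaritin, and its log2 change was -1.76 (SE 0.0491, adjusted p = 3.66e-27). No gene under 1 CPM in every DMSO library reached 3 CPM in every icaritin library. In the other direction there were 3 genes: EGR1, an immediate early gene, went from 3.79, 3.77 and 4.75 CPM to 0.757, 0.967 and 0.657 CPM; the small nucleolar RNA gene SNORA61 and the platelet tubulin gene TUBB1 had log2 changes of -2.52 and -2.49, from DMSO means of 3.58 ± 0.391 and 3.3 ± 0.0717 CPM (SD, n = 3 each).

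**Figure D2:**
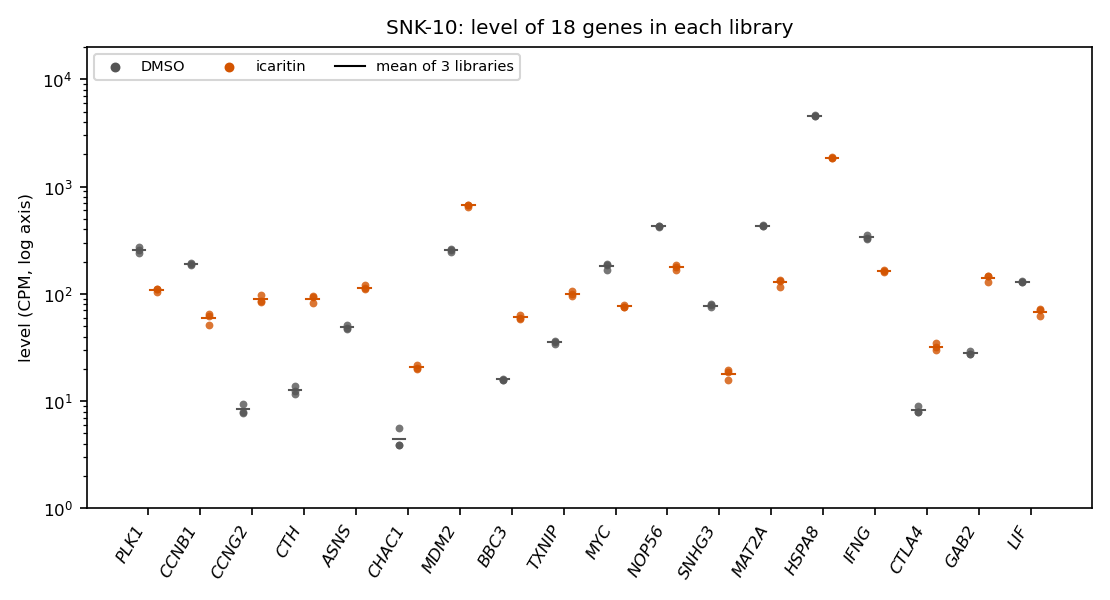
Level of 18 genes in each SNK-10 library, in CPM on a log axis; points are libraries, grey for DMSO and orange for icaritin, and bars are means of 3 libraries. The arms do not overlap for any of the 18 genes.

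The polo-like kinase PLK1 drives entry into and passage through mitosis. Its RNA stood at 272, 239 and 257 CPM with DMSO and at 104, 112 and 112 CPM with icaritin, a log2 change of -1.23 (SE 0.170, adjusted p = 4.55e-05). All 3 icaritin libraries lay below the lowest DMSO library. In bulk RNA, fewer cells in G2 and mitosis and less of these RNAs per cell cannot be told apart. Of the 49 genes of the G2/M and mitosis list, all tested, 32 fell and 4 rose, with a median log2 change of -0.29 against 0.01 for all genes. The mitotic cyclin gene CCNB1 fell furthest, from 187, 191 and 193 CPM to 51.2, 61.9 and 64.5 CPM (-1.68, SE 0.116). KIF20A, a kinesin of cytokinesis (-1.43), the kinase gene AURKA (-1.13), CDC20, which activates the anaphase-promoting complex (-1.11), the ubiquitin-conjugating enzyme gene UBE2S (-0.90) and the securin gene PTTG1 (-0.89) fell as well. The 4 that rose were MYBL2 (0.64) and FOXM1 (0.30), transcription factors that act on mitotic genes, CDK1 (0.20) and NUSAP1 (0.22). AURKB, the kinase of the chromosomal passenger complex, stood at 124, 121 and 125 CPM and 128, 124 and 118 CPM and did not pass, and its libraries overlapped between arms.

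The CHR element that serves mitotic promoters reads TTTGAA. Searched on both strands of the 250 bases before the gene start in the promoters of RefSeq (GRCh38.p14), TTTGAA was found in 20 of 42 promoters of the list (47.6%) and in 13.6% of 27305 promoters. A match of 6 letters is a description and no measure of binding. The 100 bases before the start of 3 genes that fell are given because they hold the element close to the start, with the matches in capitals: PLK1 (chr16:23678789-23678888, plus strand), the cyclin gene CCNB2 (chr15:59105046-59105145, plus strand), whose log2 change was -0.48, and CDC20 (chr1:43358881-43358980, plus strand).
PLK1: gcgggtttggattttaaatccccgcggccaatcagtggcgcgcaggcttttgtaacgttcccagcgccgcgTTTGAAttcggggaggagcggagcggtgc
CCNB2: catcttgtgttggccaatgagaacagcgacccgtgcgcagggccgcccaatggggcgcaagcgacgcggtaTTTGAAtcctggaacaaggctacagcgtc
CDC20: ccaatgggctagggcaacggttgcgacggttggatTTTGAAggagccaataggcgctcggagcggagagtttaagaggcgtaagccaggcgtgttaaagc

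S phase genes split. Of 44 genes of DNA replication and E2F targets, 16 rose and 18 fell, with a median of -0.02. The licensing factor CDT1 rose from 103, 102 and 102 CPM to 184, 196 and 189.8 CPM (0.89, SE 0.0503), and E2F7, a repressor of E2F targets, rose by 0.98; the uracil glycosylase gene UNG fell by 0.71. PCNA, the sliding clamp of replication, did not pass (-0.09, adjusted p = 0.130), but fell without icaritin replicate 3 (-0.15, adjusted p = 0.0104). Of 16 tested genes (of 18) for G1 cyclins, their kinases and inhibitors, 8 rose and 1 fell (2 or 3 fell without DMSO replicate 3 or icaritin replicate 3), the inhibitors CDKN1B (46.1 ± 1.98 to 83.1 ± 6.04 CPM, SD, n = 3 each) and CDKN2A (0.67) and cyclin G1, CCNG1 (1.05), among those that rose. CDKN1A, the p21 inhibitor, stood at 388, 368 and 379.5 CPM and at 424, 395 and 410.5 CPM and did not pass (adjusted p = 0.0938), though the arms did not overlap. Histone genes were lower: 10 of 13 tested genes fell and none rose (median -0.67), with H1-2 going from 28.7, 28.8 and 25.4 CPM to 12, 10.3 and 13.9 CPM and log2 changes of -0.81 for H2BC12, -0.63 for H1-10 and -0.59 for H3-3B; 8 of the 21 genes listed had too few counts. How the libraries treat RNA without a poly(A) tail, as most replication histone RNA is, is not given in the sources used here.

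Genes that sense and repair DNA damage moved in both directions, and those of homologous recombination rose more often than they fell. In the damage signalling list 10 of 26 genes rose and 6 fell, with a median of -0.01. RNF168, a ubiquitin ligase at breaks, rose from 32.4, 32.8 and 30.8 CPM to 43.9, 42.8 and 49.5 CPM, while the checkpoint kinase ATR (-0.41), its partner ATRIP (-0.71) and the fork protein TIPIN (-0.82) fell; ATM did not pass (-0.11). In the list for homologous recombination and Fanconi anaemia, 18 of 32 genes rose (56.2%, beside 24.4% of all genes tested) and 6 fell (median 0.20). RAD54L, a motor of strand exchange, rose by 0.77, PALB2 and BARD1, partners of BRCA2 and BRCA1, by 0.79 and 0.69, and RAD51D by 0.69. FANCL, the ligase of the Fanconi pathway, fell furthest, from 24.8, 23.8 and 27.6 CPM to 16.8, 13.8 and 15 CPM. BRCA1 did not pass (-0.10).

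Of the 54 lists with at least 5 tested genes, that of ATF4 and the integrated stress response held the largest share of risen genes. Of 23 tested genes (of 28) 22 rose, 19 of them at least 2-fold, and 1 fell. The median log2 change was 1.51. Members of the lists were chosen with earlier results of these data known, so this rank is a description and no test. CARS1, ASNS, PSAT1, CTH, SLC7A11, KLHL24 and TXNIP are counted in other lists below as well. ATF4 itself went from 261, 269 and 253 CPM to 528, 545 and 527 CPM (1.03, SE 0.0453). DDIT3, which encodes the factor CHOP, rose by 1.78 and PPP1R15A, the feedback subunit that dephosphorylates eIF2, by 1.88. SESN2, a leucine sensor that restrains mTORC1, went from 77, 73.7 and 78.7 CPM to 191, 199 and 201 CPM, and RNF19B, a ubiquitin ligase, from 95.7, 95 and 93.8 CPM to 304, 303 and 320.3 CPM. The arms did not overlap for any of these. CHAC1, which degrades glutathione, had low levels of 5.57, 3.88 and 3.91 CPM with DMSO and 21.6, 20.3 and 19.9 CPM with icaritin (2.21, SE 0.190). GDF15, a secreted stress signal, was barely detected, at 0, 0.210 and 0 CPM with DMSO and 1.08, 1.61 and 1.64 CPM with icaritin. ATF5 was the member that fell, from 76.6, 75.8 and 73.5 CPM to 65.6, 65.2 and 66.3 CPM; it overlaps 2 more abundant genes in the annotation, NUP62, which fell by 0.33, and IL4I1, which rose by 0.21. Of the eIF2 kinases, EIF2AK3, the sensor PERK, rose by 0.30 (SE 0.0791), and EIF2AK4, the amino acid sensor GCN2, did not pass (-0.03).

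ASNS, the asparagine synthetase, sets how far a cell depends on asparagine from outside, which the asparaginase of the GELOX regime removes. Its RNA stood at 51.2, 48.1 and 47 CPM with DMSO and at 113, 111 and 119.8 CPM with icaritin, a log2 change of 1.23 (SE 0.0696, adjusted p = 7.99e-18). Every icaritin library lay above the highest DMSO library. In SNT-8 and SNT-16 the gene was almost silent, with means of 1.78 and 1.5 CPM with DMSO and 1.62 and 1.34 CPM with icaritin, and the change of SNK-10 exceeded the mean of the SNT lines by 1.37 (SE 0.212, adjusted p = 9.14e-06). Of 13 tested genes (of 14) for asparagine, glutamine and proline metabolism, 6 rose and 3 fell. GPT2, the mitochondrial alanine transaminase, went from 15.1, 17.4 and 17 CPM to 66.2, 64.2 and 73.5 CPM (2.04) and GOT1, which makes aspartate, rose by 0.60.

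Genes that charge tRNA in the cytosol mostly rose. Of the 20 cytosolic aminoacyl-tRNA synthetase genes, 13 rose and 6 fell (median 0.45). The rises were led by CARS1 for cysteine (68.2 ± 7.02 to 162 ± 11.2 CPM, SD, n = 3 each; log2 change 1.25), GARS1 for glycine (1.09), AARS1 for alanine, with 228, 231 and 229 CPM against 465, 452 and 471 CPM (1.01), YARS1 for tyrosine (0.95) and MARS1 for methionine (0.88). MARS1 overlaps DDIT3 in the annotation, and how reads of the pair were split is uncertain. FARSA for phenylalanine, with 163, 149.9 and 158 CPM against 92.6, 92.1 and 80.0 CPM, RARS1 for arginine (-0.65) and VARS1 for valine (-0.59) were among those that fell. Among 17 mitochondrial synthetase genes, 2 rose and 6 fell: HARS2 rose by 0.66, and MARS2 fell from 24.6, 27.8 and 30.4 CPM to 8.44, 11.5 and 12.9 CPM (-1.33). Amino acid transporters rose in 10 of 13 tested genes (of 17) and fell in 2. SLC7A11, the cystine importer, went from 40.9, 34.5 and 35.4 CPM to 112, 106 and 99 CPM (1.52); its partner subunit SLC3A2 rose by 1.41, the leucine importer SLC7A5 by 1.12 and the serine and alanine transporter SLC1A4 by 0.92, and the taurine transporter SLC6A6 fell by 0.76.

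Serine and methionine metabolism held some of the largest changes in either direction. PSAT1, a transaminase of serine synthesis, went from 171, 170.5 and 169.8 CPM to 479, 469.5 and 542 CPM (1.54, SE 0.0563). The mitochondrial folate enzymes MTHFD2, with 351, 354 and 324 CPM against 767, 762 and 880.3 CPM, and SHMT2 (0.77) rose, and GART, an enzyme of purine synthesis, fell (-0.60). Over the list of serine and folate enzymes, 8 of 18 tested genes rose and 5 fell. In the list of the methionine cycle, transsulfuration and polyamines, 7 of 17 tested genes rose and 5 fell. CTH was its largest rise and MAT2A its largest fall, and the polyamine enzymes AMD1 (133 ± 3.28 to 61.6 ± 5.15 CPM, SD, n = 3 each; -1.11) and ODC1 (-0.58) fell.

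The letters TGATGNAA, which the composite element of ATF4 and its partners matches, stood in the 250 bases before the start in 4 of 25 promoters of the ATF4 list (16%), 2 of 16 of the cytosolic synthetases (12.5%) and 3.19% of all 27305 promoters, on either strand. A stretch of 100 bases is shown for 3 of these 6 genes, whose rise is given above, with the match in capitals; on the strand of the gene, ASNS holds the motif as written, and CHAC1 and AARS1 hold its reverse complement. The stretches are chr7:97872409-97872508, minus strand for ASNS, ending at the base before the start; chr15:40953231-40953330, plus strand for CHAC1, from 240 to 141 bases before it; and chr16:70289637-70289736, minus strand for AARS1, from 230 to 131 bases before it.
ASNS: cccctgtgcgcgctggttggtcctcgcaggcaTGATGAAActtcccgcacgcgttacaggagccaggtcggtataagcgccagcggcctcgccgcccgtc
CHAC1: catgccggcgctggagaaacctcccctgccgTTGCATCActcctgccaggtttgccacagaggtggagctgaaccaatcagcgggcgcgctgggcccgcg
AARS1: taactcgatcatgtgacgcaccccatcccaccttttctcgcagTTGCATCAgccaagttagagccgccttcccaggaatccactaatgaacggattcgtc

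Genes that build ribosomes fell together. Of 40 nucleolar ribosome biogenesis factors, 37 fell, 10 of them at least 2-fold, and none rose; 3 did not pass, and the median log2 change was -0.72. PPAN, a factor for the large subunit, went from 47.1, 52.5 and 47.2 CPM to 12, 17.8 and 12.9 CPM, though its reads are shared with the readthrough gene PPAN-P2RY11, which fell by 0.90. RRS1 went from 76.8, 83 and 80.4 CPM to 20.3, 21.3 and 28.9 CPM (-1.77), NOP56, a core protein of box C/D particles that methylate rRNA, from 423, 427 and 432 CPM to 178, 169 and 186 CPM (-1.27, SE 0.0497, adjusted p = 1.53e-22), and NCL, nucleolin, fell by 1.03. NOP16 (-1.46), WDR3 (-1.35) and GNL3 (-1.09) fell as well. The methyltransferase FBL, which works in the same particles as NOP56, did not pass and its arms overlapped, with 237, 221 and 238 CPM against 216, 211 and 226 CPM.

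The polymerases that serve ribosomes moved the same way to a smaller degree. RNA polymerase I genes fell in 8 of 14 cases and rose in 2, with POLR1G (-0.99) and POLR1C (-0.98) at the low end. RNA polymerase III genes fell in 13 of 22 cases and rose in 3; POLR3G, a subunit of dividing cells, went from 78.6, 68.7 and 75.4 CPM to 33.1, 31.7 and 36.8 CPM. MYC fell from 189, 168 and 186 CPM to 79.5, 75.8 and 75.1 CPM, a log2 change of -1.23 (SE 0.0786, adjusted p = 5.68e-12), and MXD1, which competes with MYC for the partner MAX, rose from 13, 16.4 and 13.6 CPM to 50.5, 48 and 52.6 CPM (1.81, SE 0.0909). Of the 10 tested genes of this network (of 12), 4 fell and 2 rose (1 rose without icaritin replicate 1). The ribosomal proteins of the cytosol did not move as a group: 8 of 78 rose and 7 fell, both shares under the background, and the median was 0.02. Without icaritin replicate 3 the counts were 5 risen and 11 fallen, and without icaritin replicate 1 or 2 they were 3 and 4 fallen. RPS26 fell furthest (-0.65), and RPL12 rose furthest (0.24). The MYC box letters CACGTG stood in 4 of 33 promoters of the ribosome biogenesis list (12.1%) and in 6.49% of all promoters.

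Initiation factors and the host RNAs of small nucleolar RNAs split. Of 42 initiation factors and eIF2 kinases, 23 fell and 15 rose (median -0.18). EIF4G1, the scaffold of cap-bound initiation, went from 1147, 1071 and 1123 CPM to 605, 614 and 621 CPM (-0.86), and EIF3B (-0.74) and EIF4G2 (-0.67) fell. EIF4EBP1, which blocks the cap-binding protein, rose from 17.6 ± 0.987 CPM to 51.2 ± 1.11 CPM (SD, n = 3 each; 1.54, SE 0.0946). Of 18 host RNAs, 9 fell and 8 rose: SNHG3 went from 74.9, 79 and 79.6 CPM to 19.7, 18.6 and 15.9 CPM and DANCR from 41.2, 38.6 and 41.8 CPM to 10.1, 12.2 and 10.7 CPM, while GAS5 rose from 118, 109 and 119 CPM to 173, 175 and 198 CPM and SNHG32 by 1.14. GAS5 is known to build up when growth and translation slow, as its RNA escapes decay. SNHG3 overlaps RCC1 in the annotation, which fell by 0.57, so part of the reads may belong to either.

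**Figure D3:**
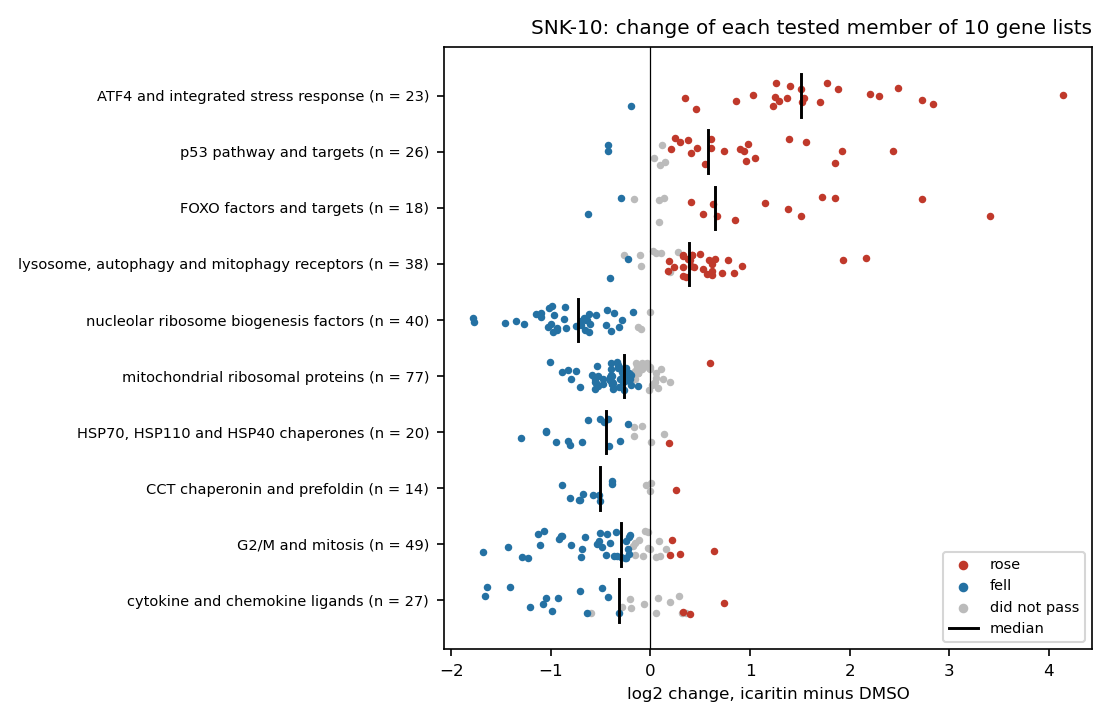
Log2 change of icaritin against DMSO for each tested member of 10 gene lists in SNK-10 cells; red members rose, blue members fell, grey members did not pass, black bars are medians, and the vertical scatter within a list has no meaning. The ATF4 list lies almost wholly to the right of 0 and all called members of the nucleolar ribosome biogenesis list to the left.

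The mitochondrial rRNAs and the RNAs for mitochondrial proteins made from nuclear genes moved apart. RNR2, the 16S rRNA of the mitochondrial ribosome, rose from 15924, 15359 and 15271 CPM to 50445, 47123 and 55000 CPM (1.71, SE 0.0912), and RNR1, the 12S rRNA, from 1412, 1376 and 1368 CPM to 4592, 4382 and 5104 CPM (1.76, SE 0.0975). These were the only genes of the mitochondrial genome in the files used here, so no mitochondrial mRNA was compared. How the libraries treat rRNA is not given in the sources used here, and its part in these rises was not tested. The nuclear genes for proteins of the same ribosome fell: of 77, 50 fell and 1 rose, MRPL10 (0.60), with a median of -0.27; 3 rose without icaritin replicate 2 or with DESeq2 size factors in edgeR, and 2 under 6 of the other settings. MRPS31 went from 31.8, 33.9 and 29.5 CPM to 18.5, 18.7 and 19.6 CPM, and MRPL4 (-0.58) and MRPL12 (-0.56) fell. Import and quality control genes fell in 17 of 27 cases and rose in 2 (in 1 without DMSO replicate 1 or 2 or icaritin replicate 3). GRPEL1, a partner of mitochondrial HSP70 (-0.89), and the channel protein TOMM40 (-0.61) fell, while the protease LONP1 rose from 144, 146 and 150 CPM to 244, 252 and 257 CPM (0.78). Subunits of oxidative phosphorylation encoded in the nucleus fell in 20 of 62 tested cases (of 63) and rose in 7 (in 4 without icaritin replicate 3): ATP5MC1 of the ATP synthase fell by 0.74, cytochrome c, CYCS, went from 409, 409 and 409 CPM to 273, 259.6 and 309 CPM, and SDHA of complex II rose by 0.33.

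Chaperones of the cytosol mostly fell. In the list of HSP70, HSP110 and HSP40 chaperones, 14 of 20 fell and 1, the factor HSF1, rose (0.19); of HSP90 and its co-chaperones 12 of 14 fell and none rose; of the CCT chaperonin and prefoldin, 10 of 14 fell and 1 rose, a rise not called without icaritin replicate 3. HSPA8, the constitutive HSP70, went from 4518, 4670 and 4515 CPM to 1847, 1835 and 1891 CPM, a log2 change of -1.30 (SE 0.0467, adjusted p = 1.37e-23). Measured in CPM, it lost more than any other gene that fell; ACTB and ACTG1, the cytoskeletal actins, and the genes HSP90AB1, HSP90AA1, HSPA5, NCL and CALR followed. The largest gains in CPM among genes that rose were those of RNR2, RNR1, the elongation factors EEF1A1 (0.17) and EEF2 (0.28), FTH1, MTHFD2, TPT1 (0.24) and MDM2. STIP1, which joins HSP70 to HSP90, went from 753, 740.5 and 752 CPM to 358, 368 and 373 CPM (-1.03). HSP90AB1 and HSP90AA1, the constitutive and the inducible HSP90, had log2 changes of -0.69 and -0.55. The HSP40 gene DNAJB1 (-1.04), HSPH1 (-0.81) and the chaperonin subunit gene CCT2 (-0.88) fell. HSPA1B (-1.04) and HSPA1A (-0.95) fell, the second not under DESeq2 (adjusted p = 0.127); they are nearly identical, and how reads were split between the copies is not given in the sources used here. The heat shock element, searched as 3 adjoining units with no mismatch on both strands, stood in 2 of 18 promoters of the first list (11.1%), in 1 of 12 of the second (8.33%) and in 0.439% of all promoters. HSPA8, in the first list, is shown (chr11:123062137-123062236, minus strand, the 100 bases before its start), with the match, on the reverse strand, in capitals.
HSPA8: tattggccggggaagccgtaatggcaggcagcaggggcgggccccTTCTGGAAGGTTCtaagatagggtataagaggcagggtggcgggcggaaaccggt

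Genes for protein breakdown and for protein folding in the endoplasmic reticulum mostly fell too. Of 22 genes of that compartment's chaperones and the unfolded protein response, 14 fell and 5 rose (median -0.40). HSPA5, the chaperone BiP, went from 1758, 1667 and 1693 CPM to 795, 792 and 889 CPM (-1.05, SE 0.0464), SDF2L1 from 72.2, 68.1 and 80.5 CPM to 22.6, 21.5 and 22.7 CPM (-1.72) and calreticulin, CALR, fell by 0.68. The members that rose included the factor XBP1 (0.18), HERPUD1 (0.38) and DNAJB9 (0.47), the last 2 known for disposal of misfolded protein. ERN1, counted in the ATF4 list, went from 5.78, 5.77 and 5.7 CPM to 31.7, 26 and 27.1 CPM. Proteasome genes fell in 29 of 37 cases by small amounts (median -0.23), PSMD12 (-0.72) and PSME3 (-0.65) the most. The one that rose was NFE2L1, the transcription factor that raises proteasome genes when the proteasome fails, from 184, 181 and 182 CPM to 463, 463 and 485 CPM (1.37, SE 0.0430, adjusted p = 1.47e-25).

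Genes of lipid synthesis mostly fell as well. Of 32 tested genes (of 34) for sterol and fatty acid synthesis, 22 fell and 5 rose (median -0.40). FASN, the fatty acid synthase, went from 632, 629 and 669 CPM to 276, 283 and 237 CPM (-1.28, SE 0.0567), and LSS, which closes the sterol rings, from 76.1, 70.2 and 71.3 CPM to 37.7, 38.7 and 35.2 CPM. FDPS, an earlier enzyme of the same path, fell by 0.64. HMGCS1, an early enzyme of sterol synthesis, rose by 0.27 (SE 0.104, adjusted p = 0.0445), and of the regulators SREBF2 rose by 0.19 and SREBF1 did not pass (0.09). Leaving out any 1 of the 6 libraries lowered the number of risen members to 2 or 3, and HMGCS1 was not called in any of these 6 fits (adjusted p of 0.0603 to 0.138).

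In the p53 and FOXO lists most tested genes rose. Their members too were chosen with earlier results of these data known, so the counts are a description and no test. Of 26 tested genes (of 28) of the p53 pathway, 20 rose and 2 fell (median 0.58). MDM2, the ligase that degrades p53, went from 246, 263 and 257 CPM to 671, 652 and 679 CPM (1.39, SE 0.0527, adjusted p = 9.38e-23). BBC3, which encodes the killer protein PUMA, went from 16.2, 15.7 and 15.8 CPM to 63.5, 58.8 and 59.6 CPM (1.93, SE 0.0958), and the death receptor gene FAS from 189.8, 187 and 183 CPM to 365, 344 and 380.2 CPM (0.96). BAX and CDKN1A, 2 of the best known targets, did not pass (0.04 and 0.11). In the FOXO list 12 of 18 tested genes (of 20) rose and 2 fell, though 1 fell without any 1 DMSO library or icaritin replicate 2. FOXO3 rose from 19.4, 20.1 and 16.8 CPM to 42, 39.9 and 43.6 CPM (1.16) and FOXO1 did not pass (-0.16; without icaritin replicate 3 it fell, -0.29, adjusted p = 0.0164). The proapoptotic gene BCL2L11 (1.38) and TXNIP, an alpha-arrestin that holds back glucose uptake and thioredoxin, rose; TXNIP went from 34.2, 36.3 and 35.5 CPM to 99, 96.2 and 107 CPM (1.51). Of the 4 tested alpha-arrestins (of 6) ARRDC3, TXNIP and ARRDC2 (0.44) rose and ARRDC1, at 9.99, 9.54 and 9.61 CPM and 10.2, 9.88 and 8.98 CPM, did not pass. The forkhead letters GTAAACA stood in 2 of 19 promoters of the FOXO list, those of TXNIP and BCL2L11 (10.5%), and in 2.98% of all promoters; TXNIP is shown from 160 to 61 bases before its start (chr1:145996640-145996739, minus strand), with the match in capitals.
TXNIP: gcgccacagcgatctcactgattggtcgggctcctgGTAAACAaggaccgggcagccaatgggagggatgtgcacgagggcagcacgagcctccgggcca

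Genes of lysosomes and autophagy rose in 28 of 38 tested cases (of 39) and fell in 2 (in 1 without DMSO replicate 3), with a median of 0.39. LAMP1, a protein of the lysosomal membrane (0.59), the autophagy receptor gene OPTN (0.78), and the lysosomal hydrolase CTSD (0.62) rose; CTSD went from 121, 109 and 125 CPM to 176, 182 and 186 CPM. BNIP3L, a receptor that marks mitochondria for breakdown, went from 13.7, 14.5 and 12.7 CPM to 51.6, 50.1 and 54.1 CPM (1.93, SE 0.263). Genes of glycolysis and the hypoxia response rose in 13 of 28 tested cases (of 29) and fell in 4 (in 1 or 2 without DMSO replicate 1 or icaritin replicate 1 or 2). VEGFA, the vascular growth factor, went from 20.0, 21.4 and 20.6 CPM to 57.2, 52.9 and 55.9 CPM (1.42), NDRG1 rose by 1.30 and PDK1 by 1.29. HK2, the inducible hexokinase, fell from 88.2, 95.7 and 90.8 CPM to 51.3, 45.7 and 51.4 CPM (-0.89), and its libraries did not overlap.

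In the BCL2 family, 9 of 15 tested genes (of 18) rose and 1 fell. Both killers and protectors were among them: besides BBC3 and BCL2L11 of the first kind, BCL2 went from 79.2, 76.7 and 80.0 CPM to 139, 130.4 and 146 CPM (0.82, SE 0.0580) and MCL1 from 269.9, 279 and 264 CPM to 345, 325 and 355 CPM (0.34, SE 0.0460). Death receptor and caspase genes rose in 7 of 22 cases (31.8%) and fell in 6 (27.3%), shares near the background. FAS is counted here too. APAF1, the core of the apoptosome, rose by 0.99 and CASP8 by 0.52; TNFRSF1B, a TNF receptor, fell by 0.52, and FASLG, the FAS ligand, went from 7.36, 6.82 and 7.29 CPM to 2.49, 2.26 and 1.97 CPM (-1.67).

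**Figure D4:**
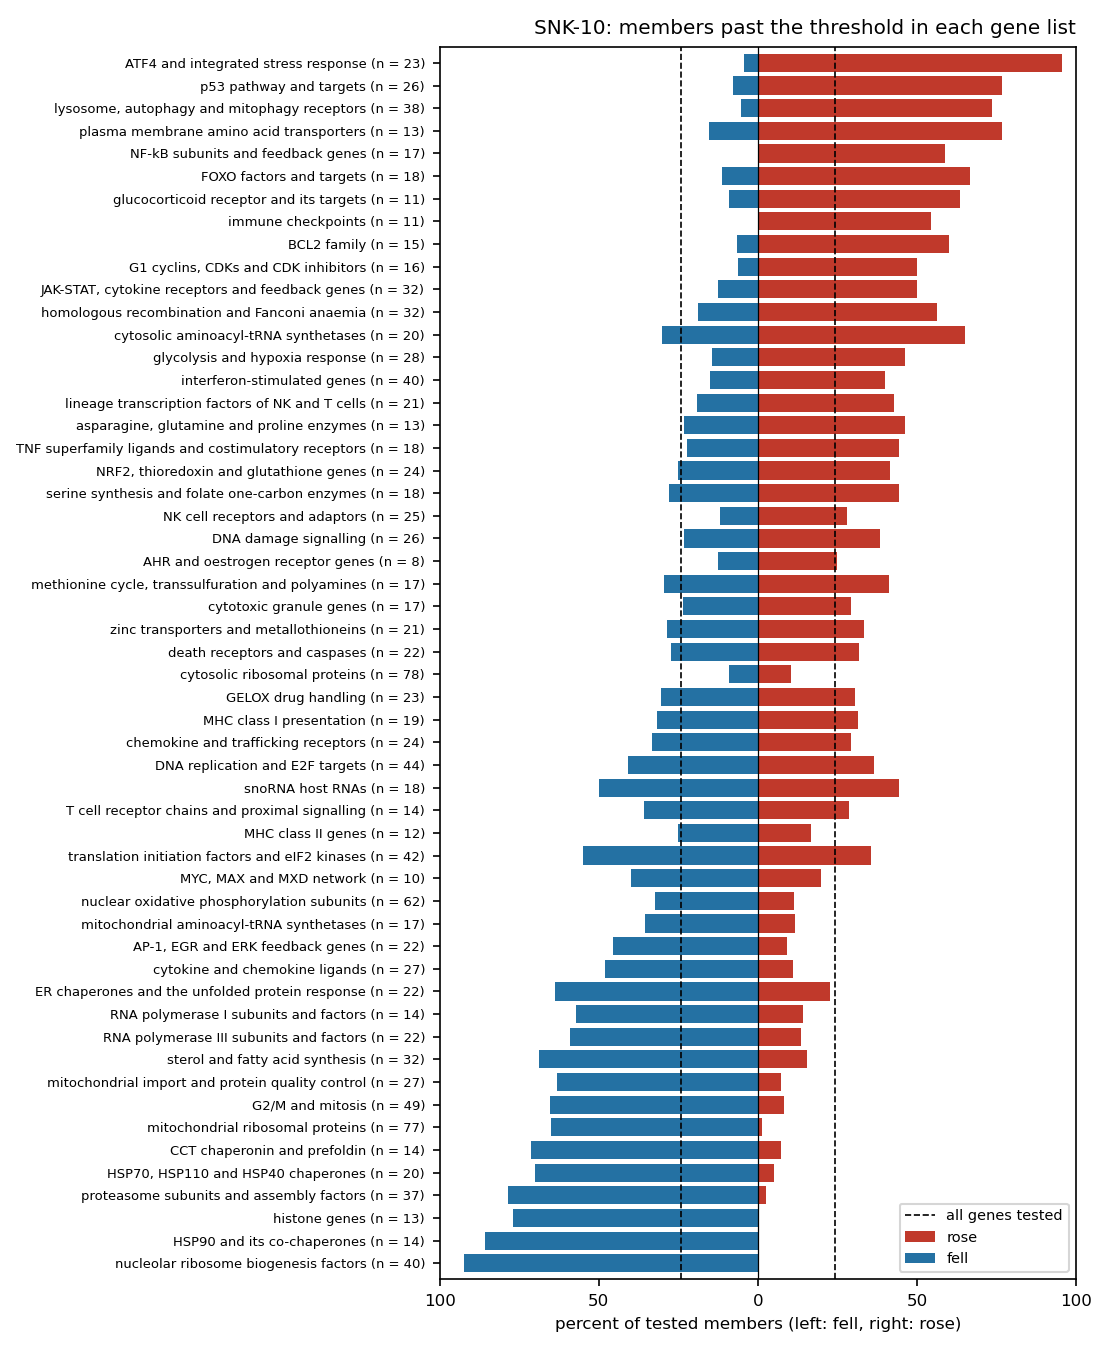
Share of the tested members of each of 54 gene lists that rose (red, right) or fell (blue, left) in SNK-10 cells, in percent, with the number tested in brackets; 2 lists with under 5 tested genes are left out. Dashed lines mark the shares over all genes tested, 24.4% risen and 24.0% fallen, and lists are ordered by the difference of their shares.

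Cytokine genes of the lymphoma cells were lower. Of 27 tested ligands (of 30) 13 fell, 6 of them at least 2-fold, and 3 rose (median -0.32). IFNG, the interferon of NK and T cells, went from 329, 355 and 325 CPM to 162, 161 and 167 CPM (-1.04, SE 0.0488, adjusted p = 3.39e-20), and CCL2, which draws monocytes, from 272, 266 and 271 CPM to 100.4, 101 and 102 CPM (-1.41). OSM, a cytokine of the IL-6 family, went from 106, 95.1 and 104 CPM to 32.6, 34.1 and 29.9 CPM (-1.66), TNF from 24.2, 19.8 and 23.4 CPM to 8.77, 6.45 and 6.35 CPM (-1.64), and LTB, lymphotoxin beta, fell by 1.21. The growth factor of macrophages, CSF1, rose from 28.4, 28.7 and 28.9 CPM to 50.3, 43.5 and 50.3 CPM (0.74). Receptors for chemokines and trafficking split, with 8 of 24 tested genes (of 26) fallen and 7 risen (33.3% and 29.2%, beside 24.0% and 24.4% of all genes tested). CXCR3 (-1.48), CCR1 (-1.07) and the integrin gene ITGA4 (-0.73) fell, and RGS1, which damps chemokine receptor signals, went from 72.6, 66.7 and 66.1 CPM to 294, 273 and 343 CPM (2.15).

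Genes of the cytotoxic programme moved in both directions, and the shares of granule genes that rose (29.4%) and fell (23.5%) were near the background. Granule genes rose in 5 of 17 cases and fell in 4 (median 0.08); without DMSO replicate 3 or icaritin replicate 3 the risen were 3, and without icaritin replicate 1 the fallen were 2. The granzyme gene GZMA went from 105, 109.5 and 103 CPM to 64.5, 57.8 and 61.2 CPM (-0.79) and perforin, PRF1, fell by 0.24, while CST7, an inhibitor of granule proteases, rose by 0.79. NK receptor genes rose in 7 of 25 tested cases (of 29) and fell in 3, shares near or below the background, with CD96 (0.53) and CD244 (0.46) among those that rose; without DMSO replicate 2 or 3, icaritin replicate 1 or 2 or a filter on low counts 1 fell, with DESeq2 none and with limma on log2(FPKM + 1) 6. Genes of T cell receptor signalling rose in 4 of 14 tested cases (of 23) and fell in 5 (28.6% and 35.7%, beside 24.4% and 24.0% of all genes tested). The kinase gene FYN (0.49) rose, and the adhesion gene CD2 (255, 264 and 254 CPM to 177, 179 and 183 CPM) and the adaptor gene LCP2 (-0.38) fell. Of 21 tested lineage factors (of 23) 9 rose and 4 fell. TBX21, the T-bet factor that acts on IFNG and granule genes, went from 45.6, 49 and 45.9 CPM to 27.3, 24.5 and 25.2 CPM (-0.87), and the NK factor gene NFIL3 from 47.3, 45.5 and 50.8 CPM to 106, 100.4 and 123 CPM (1.19); TOX2 (1.10), ZEB2 (0.80) and PRDM1 (0.72) rose.

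The lists of JAK-STAT, NF-kB, TNF superfamily and checkpoint genes each held more risen than fallen genes. In the list of JAK-STAT genes, cytokine receptors and their feedback genes, 16 of 32 rose and 4 fell (median 0.23). STAT5A, the factor downstream of IL-2 and IL-15, went from 225, 216 and 234 CPM to 376, 376 and 382 CPM (0.75, SE 0.0464), its target kinase PIM1 from 212, 207 and 209 CPM to 309, 326 and 327 CPM (0.62), and PIM3 and JAK1 rose by 0.80 and 0.61. STAT5A lies beside its near-copy STAT5B, which rose by 0.33. In the NF-kB list 10 of 17 genes rose and none fell (1 fell without icaritin replicate 3). ICAM1, the adhesion ligand, went from 378, 368 and 376 CPM to 739.5, 749 and 828 CPM (1.05, SE 0.0496), and the feedback genes TNFAIP3 and TNIP1 rose by 0.95 and 0.51; NFKBIA, the classic early feedback gene, did not pass (-0.04). Ligands and receptors of the TNF superfamily rose in 8 of 18 tested cases (of 20) and fell in 4: TNFSF4, the OX40 ligand, went from 86.6, 88.7 and 80.3 CPM to 267, 272 and 306 CPM (1.72), TNFSF8, the CD30 ligand, rose by 1.23, and its receptor TNFRSF8, known as CD30, fell from 527, 528 and 544 CPM to 386, 402 and 384 CPM (-0.45). Checkpoint genes rose in 6 of 11 tested cases (of 16) and none fell. CTLA4 went from 8.94, 7.87 and 7.92 CPM to 32, 30.2 and 34.5 CPM (1.97, SE 0.112), LGALS9 and HAVCR2, the galectin-9 and TIM-3 pair, rose by 0.75 and 0.55, and LAG3 did not pass (0.07).

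Immediate early genes and their ERK feedback fell in 10 of 22 tested cases (of 25) and rose in 2. JUN went from 146, 135 and 139.8 CPM to 59.7, 59.4 and 58.5 CPM (-1.25), and DUSP6, a phosphatase that reports ERK activity, from 49.3, 48.7 and 50.2 CPM to 20.8, 20.8 and 20.7 CPM (-1.25, SE 0.0931). The phosphatase gene DUSP5, also of the ERK pathway, rose from 24.3, 22 and 20.2 CPM to 92.2, 88.1 and 93.5 CPM (2.04, SE 0.0737), so these 2 feedback genes went opposite ways. Interferon-stimulated genes rose in 16 of 40 cases and fell in 6 (median 0.03); the guanylate-binding protein genes GBP4 (0.67) and GBP5 (0.53) rose and BST2, tetherin, fell (-0.52). MHC class I genes rose in 6 of 19 cases and fell in 6, and MHC class II genes rose in 2 of 12 (in 1 without DMSO replicate 1 or 3 or icaritin replicate 3) and fell in 3. HLA-DRA did not pass (0.04), the peptidase gene ERAP2 rose (0.72), and HLA-DMA, which loads peptides on class II, fell from 212, 210.3 and 206 CPM to 150.5, 148 and 155 CPM (-0.47).

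In the list for handling the GELOX drugs 7 of 23 tested genes (of 24) rose and 7 fell, shares of 30.4% each and near the background. DCK, the kinase that activates gemcitabine, went from 75.2, 66 and 69.4 CPM to 107, 108 and 123 CPM (0.68, SE 0.0655), and SLC29A1, the transporter that takes it up, from 85.1, 84.4 and 93 CPM to 57, 59.9 and 52.4 CPM (-0.63, SE 0.0620). CTPS1, which makes the competing cytidine nucleotide, fell by 0.62. Redox genes of the NRF2 list rose in 10 of 24 tested cases (of 25) and fell in 6 (in 3 without icaritin replicate 2); NFE2L2, the gene of NRF2, rose by 0.51, ferritin heavy chain, FTH1, by 0.35, and transketolase, TKT, fell by 0.41. Zinc genes rose in 7 of 21 tested cases (of 23) and fell in 6 (33.3% and 28.6%, beside 24.4% and 24.0% of all genes tested). SLC39A10 went from 29, 23.1 and 23.7 CPM to 6.28, 6.66 and 5.37 CPM, SLC39A9, another importer of the family, from 74.4, 77 and 77.2 CPM to 185, 184 and 202 CPM (1.32), and the metallothionein MT2A from 39.6, 48.9 and 42.7 CPM to 78.8, 71.8 and 77.3 CPM (0.80). Glucocorticoid receptor genes rose in 7 of 11 tested cases (of 13) and fell in 1: NR3C1, the receptor, went from 138, 130 and 130.5 CPM to 261, 256 and 289.7 CPM (1.02), and its target TSC22D3, known as GILZ, from 13.9, 14.4 and 13.7 CPM to 55, 58.3 and 64.7 CPM (2.08), while FKBP5, another target, fell (-0.21). Flavonoids can bind the aryl hydrocarbon and oestrogen receptors. Of 8 tested genes (of 12) for these, 2 rose and 1 fell (-0.52), shares near or below the background, with a median of 0.04. The other 4 genes of the list were not tested, and neither was binding of icaritin to these receptors. TIPARP, an aryl hydrocarbon receptor target, rose from 36, 38.1 and 37.2 CPM to 57.4, 53 and 66.3 CPM (0.67). ARNT rose by 0.16 (adjusted p = 0.0297). That call was lost under 4 of the other settings and without DMSO replicate 2 or 3 or icaritin replicate 2. AHR did not pass (0.11).

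The response of SNK-10 was then set against the mean response of SNT-8 and SNT-16 in the same fit. The difference passed for 2033 genes (14.1%), with the log2 change greater in SNK-10 for 1184 (8.22%) and lesser for 849 (5.90%); 1506 of them had also passed in SNK-10. The balance turned with limma on log2(FPKM + 1), to 904 greater and 1611 lesser. Several of the largest differences lay in genes that the SNT lines hardly express, where log2 changes rest on few counts. GAB2, an adaptor that links receptors to PI3 kinase, is such a gene: it went from 29.4, 27.7 and 27.6 CPM to 145, 129 and 148 CPM in SNK-10, with means of 0.571 to 0.837 CPM in the DMSO libraries of the SNT lines (difference 2.24, SE 0.358, adjusted p = 1.55e-05). CCDC141 rose in SNK-10 (17.6, 16.9 and 17.5 CPM to 46.1, 49.4 and 47.9 CPM) and stood at 1.07 and 1.3 CPM in the SNT lines (difference 2.27). ERN1 was expressed in all lines, at 3.96 and 5.5 CPM in the SNT lines with DMSO, and rose by 2.29 in SNK-10 against 0.90 in SNT-8 and 0.16 in SNT-16 (difference 1.77, SE 0.172, adjusted p = 8.77e-10). EIF4EBP1 rose by 1.54 in SNK-10 against -0.10 and 0.29, with 7.9 and 7.42 CPM in the SNT lines (difference 1.44, adjusted p = 6.75e-10).

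Genes with a lesser change were of more than 1 kind. Some fell in every line and further in SNK-10, such as MAT2A (-1.76 against -1.21 and -1.14) and NOP56 (-1.27 against -1.01 and -0.76). Others rose further in the SNT lines, several from low levels. FUCA1, a lysosomal fucosidase and p53 target, went from 19, 19.7 and 15.8 CPM to 30.4, 28.6 and 28.8 CPM in SNK-10, a log2 change of 0.68, against 3.81 and 3.51 in the SNT lines (difference -2.97, SE 0.317, adjusted p = 1.71e-08), which started from 0.303 and 0.399 CPM and reached 4.42 and 4.68 CPM. TP53I3, another p53 target, rose by 0.61 in SNK-10 against 2.59 and 2.41 (difference -1.89). AFDN, a junction protein gene, stood at 14.3, 14.9 and 12.2 CPM and 12.1, 12.6 and 12.3 CPM in SNK-10 and did not pass there (difference -3.51, from 0.135 and 0.565 CPM), nor did VANGL1, a gene of planar cell polarity (difference -2.51, from 0.370 and 0.234 CPM with DMSO in the SNT lines). LIF, the leukaemia inhibitory factor, fell from 128, 129 and 133 CPM to 72.6, 71.1 and 61.5 CPM in SNK-10 with means of 0.167 and 0.335 CPM in the SNT lines with DMSO (difference -2.09). The mitotic genes CDC20 and CCNB1 fell less in SNK-10, with differences of 0.65 (adjusted p = 7.39e-06) and 0.50 (adjusted p = 0.0383), and the difference for PLK1 did not pass (0.53, SE 0.211, adjusted p = 0.127).

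At a mean of 10 CPM or more in SNK-10, there were 81 genes in which the change had the opposite sign to that of both SNT lines, past the threshold in each: 51 rose and 30 fell in SNK-10, and all 81 passed the test of the difference. Among those that rose, CSF1 went by 0.74 against -0.21 and -0.37, GADD45B, a stress sensor gene, by 0.67 against -0.32 and -0.50, and THBS4, a matrix protein gene, by 0.59 against -0.66 and -0.70. The checkpoint gene HAVCR2 was expressed in all lines; it went from 53, 57.7 and 54.3 CPM to 76.9, 80.8 and 84.2 CPM in SNK-10 and from 49.5 to 41.5 CPM in SNT-8 and 49.4 to 39.6 CPM in SNT-16 (difference 0.84, SE 0.0901, adjusted p = 9.09e-09). Among those that fell were MYBL1, a MYB family factor (-0.57 against 0.32 and 0.64), EVI5 (-0.54 against 0.54 and 0.48), the AP-1 gene FOSL1 (-0.48 against 0.56 and 0.43) and FADS2, a fatty acid desaturase, which went from 110.2, 104 and 116 CPM to 75.1, 81.2 and 73.5 CPM in SNK-10 and rose by 1.31 and 0.64 in the SNT lines (difference -1.50, adjusted p = 9.80e-13). FADS2 overlaps FADS1 in the annotation, which fell by 0.23 in SNK-10, a call lost without DMSO replicate 1 or 3 or icaritin replicate 2.

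Of the genes named in the text, 73 overlap at least 1 tested neighbour in the annotation, and 49 of them a neighbour that passed; how their reads were divided is uncertain. Among pairs not given above are KIF20A with CDC23, LONP1 with RPL36, MAT2A with GGCX, MTHFD2 with SLC4A5, POLR1C with XPO5, POLR1G with ERCC1, ERAP2 with ERAP1, TP53INP1 with NDUFAF6 and DEPP1 with RASSF4. Of these neighbours GGCX fell by 0.88 and SLC4A5 rose by 0.89, in the direction of their partners, while XPO5 rose by 0.24 against the fall of POLR1C. SNORA61 overlaps the more abundant SNHG12, which fell by 1.09. CERKL beside ITGA4 fell by 0.78, and S100PBP beside YARS1 and SNX8 beside EIF3B rose by 0.63 and 0.67. ACTA2 beside FAS and TECR beside DNAJB1 fell by 0.33 and 0.27.

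**Figure D5:**
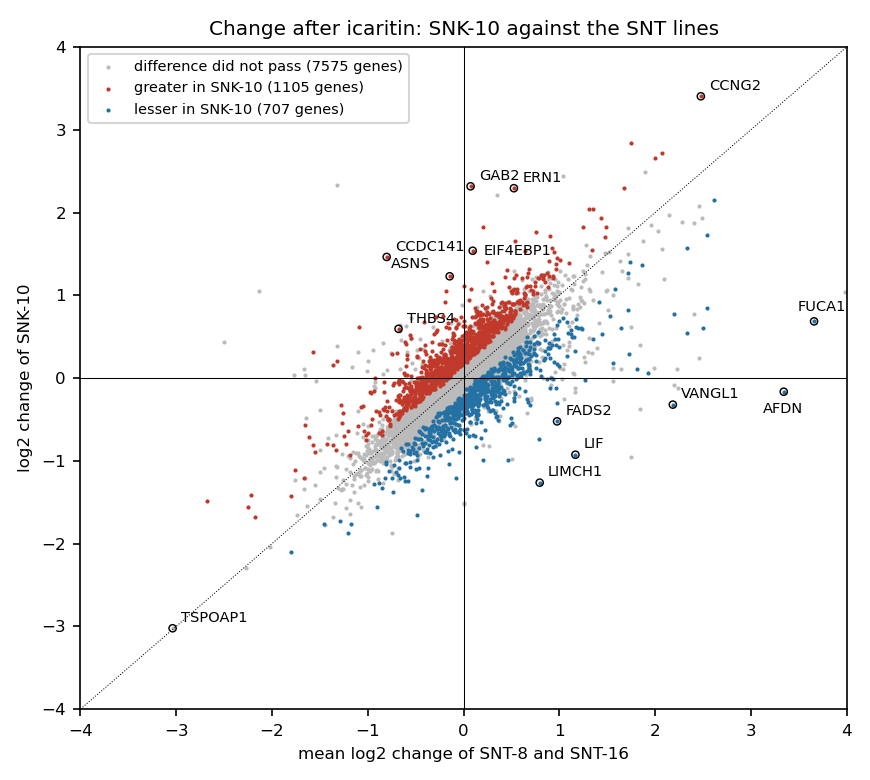
Log2 change of SNK-10 (vertical axis) against the mean log2 change of SNT-8 and SNT-16 (horizontal axis) for the 9387 genes with at least 10 CPM over the SNK-10 libraries; red marks 1105 genes whose change was greater in SNK-10 and blue 707 whose change was lesser, past the test of the difference. The dotted line marks equal changes: TSPOAP1 lies on it, and ASNS, GAB2 and EIF4EBP1 lie above it near a horizontal value of 0.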

How the data were processed

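RNA of 18 samples, 6 of them SNK-10, was extracted with Trizol and made into MGIEasy libraries, per the labels. The authors deposited, per gene and library, expected counts, FPKM values and a length in bases, per the file headers; Bowtie2 and HISAT are named in the submitters' processing notes without versions, and no source used here gives the counter, its settings or the genome build. Genes that a library does not list count as 0. Of 21662 gene IDs, 21559 were named by ID and 7 by transcript from RefSeq, and 96 kept none.

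Expected counts were rounded and fitted with edgeR 4.0.16 in R 4.3.3 (filterByExpr with a minimum count of 10 and total of 15, TMM, robust quasi-likelihood, 12 residual degrees of freedom over the 18 libraries), with the difference of SNK-10 from the mean of both other lines as a contrast in the same fit. TMM factors of SNK-10 were 0.932 to 0.984. DESeq2 1.42.0, limma 3.58.1 on log2 of the deposited FPKM plus 1, other scalings and filters, a replicate block and each SNK-10 library left out were alternatives. Tested on simulated counts, the SNK-10 comparison recovered 94% of 100 changes of 0.5 and 100% of 100 changes of 1 on the log2 scale and called 0.085% of unchanged genes. The changed genes all had a mean above 100 counts, and every other gene was left unchanged. These shares need not hold for genes with fewer counts or for a response as wide as the one reported.

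Named genes are PLK1, the 15 largest rises and falls with at least 10 CPM and no overlap, the 8 largest gains and losses in CPM, genes under 1 CPM in one arm and at least 3 CPM in the other, up to 4 members a list by smallest p, the 8 largest differences a direction from the SNT lines (not all are described), 4 a direction of opposite sign, and further list members picked for what they do; some genes are not reported here. The members and lists were chosen with earlier results of these data known. Promoters are from RefSeq (GRCh38.p14).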

Additional observations from a re-analysis of the deposited data

Results flagged for a closer look

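Of the 261 genes the text names, 120 passed the test of a difference between the log2 change of SNK-10 and the mean log2 change of SNT-8 and SNT-16 (adjusted p from edgeR's quasi-likelihood test, 9.80e-13 to 0.0474). The change was greater in SNK-10 for 82 and lesser for 38. Over all genes tested, 8.22% were greater and 5.9% lesser. Some named genes were picked for this difference or for an opposite sign in the SNT lines, so the counts are no result about the named genes. The values below are these differences on the log2 scale, and a difference above 0 can also mean a smaller fall in SNK-10.

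Among stress and amino acid genes the differences were 0.40 for ATF4, 1.09 for CTH, 1.37 for ASNS, 0.73 for GPT2, 0.21 for PSAT1, 0.23 for RNF19B and 0.65 for KLHL24. The transporters SLC7A11 (0.58), SLC3A2 (0.52) and SLC7A5 (0.45) and the synthetases CARS1 (0.41), YARS1 (0.36), MARS1 (0.26), GARS1 (0.21) and HARS2 (0.32) were greater in SNK-10 too. SESN2 (-0.50), SLC1A4 (-0.50), ATF5 (-0.63), MAT2A (-0.58), EIF2AK3 (-0.37), SDF2L1 (-0.43) and DNAJB9 (-0.52) were lesser. ERN1 stood at 1.77, EIF4EBP1 at 1.44 and EIF2AK4 at 0.63.

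For the mitochondrial rRNA genes the differences were 0.81 for RNR2 and 1.00 for RNR1, and MRPL10 stood at 0.34. In the nucleolus NOP56 (-0.38) and RRS1 (-0.31) were lesser, as were the host RNAs DANCR (-0.67), SNHG12 (-0.42) and SNHG3 (-0.30) and the small nucleolar RNA gene SNORA61 (-1.44). Chaperone and proteasome genes gave -0.89 for HSPA1B, -0.23 for DNAJB1, -0.22 for PSMD12 and 0.21 for HSF1, and the actin gene ACTB gave 0.17. Lipid genes gave -1.50 for FADS2, 0.76 for HMGCS1 and 0.19 for SREBF2.

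In the cell cycle, CCNB1 (0.50), CDC20 (0.65), KIF20A (0.38), AURKB (0.45), FOXM1 (0.23) and NUSAP1 (0.22) were greater in SNK-10, as were CCNG2 (0.93), CDKN1B (0.37), CDKN2A (0.26) and the histones H2BC12 (0.56) and H1-10 (0.58). PCNA (-0.45), UNG (-0.39), FANCL (-0.63), BRCA1 (-0.29), ATM (-0.24) and CDKN1A (-0.28) were lesser. For p53, FOXO and death genes the differences were 0.29 for MDM2, 0.50 for BBC3, 0.42 for BCL2L11, 0.31 for FOXO3, 0.66 for ARRDC3, 0.62 for CASP8, -0.20 for TNFRSF1B, -1.89 for TP53I3 and -2.97 for FUCA1. The lysosomal genes LAMP1 and CTSD gave 0.16 and 0.19, VEGFA gave 0.41 and HK2 gave -0.84.

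Among immune genes, differences above 0 were those of CSF1 (1.04), CCL2 (0.80), LTB (0.46), CXCR3 (1.20), STAT5A (0.62), STAT5B (0.30), PIM1 (0.80), PIM3 (0.50), ICAM1 (0.73), NFKBIA (0.64) and TNIP1 (0.30). The same held for the checkpoint genes LGALS9 (0.97) and HAVCR2 (0.84), the receptors TNFRSF8 (0.43), CD96 (0.28) and CD244 (0.56), the ligand TNFSF8 (1.37) and the signalling genes CD3E (0.18), FYN (0.37) and LCP2 (0.45). Lineage factors gave 0.47 for TBX21, 0.45 for TOX2 and 0.23 for PRDM1, and interferon genes 0.51 for GBP4 and 0.36 for GBP5. LIF (-2.09), TNFSF4 (-0.82) and RGS1 (-0.47) were lesser.

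In signalling and drug handling, DUSP5 gave 0.69 and DUSP6 -0.63, FOSL1 -0.98, DCK 0.35 and CTPS1 -0.29. NFE2L2 gave 0.33, MT2A 0.63, SLC39A9 0.64, NR3C1 0.38 and TIPARP 0.83. Outside the lists the differences were 2.24 for GAB2, 2.27 for CCDC141, 1.27 for THBS4, 1.08 for GADD45B, 0.62 for YPEL2, -1.05 for MYBL1, -1.05 for EVI5, -1.17 for SOX12, -2.51 for VANGL1 and -3.51 for AFDN. The genes AFDN, FUCA1, VANGL1, LIF, TP53I3, SNORA61, EVI5, YPEL2, GPT2, ASNS, TNFSF8, ERN1, GAB2 and CCDC141 had a mean under 5 CPM in at least 1 SNT line with DMSO.

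The mean transcript length deposited for each gene, which no comparison of levels used, was shorter with icaritin in 189 genes and longer in 98, past the same threshold; its values are given under the other observations.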

How the results depend on the processing

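The counts of genes that rose or fell, with or without a 2-fold change, stayed within 1.5 times the values given under DESeq2 size factors, TMM without the mitochondrial genes, upper quartile scaling, DESeq2, both other count filters, a fit of the 6 SNK-10 libraries alone and a fit that was not robust; so did those of genes that differed from the SNT lines, except that the 6 libraries alone give no such count. With limma on log2(FPKM + 1), genes at least 2-fold higher were 117, genes at least 2-fold lower 131 and genes with a lesser change than in the SNT lines 1611, against 904 with a greater one; the cause was not tested. The share of risen among called genes was 50.4%, 45.3% with limma on FPKM and 48.1% to 51.6% under the other settings. DESeq2 called 3217 higher and 3037 lower genes. Without single SNK-10 libraries, 3145 to 3257 genes were higher and 3133 to 3350 lower, 331 to 375 and 347 to 375 by at least 2-fold, and 982 to 1102 and 644 to 853 had a greater and a lesser change than in the SNT lines. Nothing in the labels says that replicate numbers pair the arms. Same-numbered deviations of SNK-10 DMSO and icaritin libraries correlated at -0.015, 0.037 and -0.123, and those of unlike numbers at -0.131 to 0.122. Whether libraries of the same number shared a culture or a day was not tested. With a replicate block (line by replicate number), 3412 genes were higher and 3376 lower, 345 and 363 by at least 2-fold, and 1060 and 772 differed from the SNT lines.

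No gene called in the report reversed under any setting; CFLAR, not called here, had a log2 change of 0.255 with limma on log2(FPKM + 1) (adjusted p = 0.000134), a scale that divides by the length, against -0.06 in counts. Among the genes described, ARNT and HSPA1A were not called by DESeq2 (adjusted p = 0.053 and 0.127), and ARNT was not called in 3 further settings (adjusted p of 0.0578 to 0.0788). VANGL1, BRCA1, FBL and PCNA were called with limma on FPKM (adjusted p = 0.00399, 0.00833, 0.0275 and 0.0202). In edgeR without a filter on low counts, CDKN1A (adjusted p = 0.0411) and VANGL1 (0.0165) were called, the second also with the 6 SNK-10 libraries alone. The cause was not tested. Of 112 counts of risen or fallen list members, 10 moved by over 1.5 times with limma on FPKM, 5 with DESeq2, 4 without a filter on low counts and at most 3 in any other setting that kept every library. Each was a count of at most 4 genes in the report, except that risen ribosomal proteins of the cytosol were 5 with limma on FPKM. Calls that change when 1 library is left out are given beside the results. Both genes of the mitochondrial genome have no value where they are left out. Depth limits genes under about 10 CPM, where 1 library holds under 100 counts.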

Other observations

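Beside the counts, the authors deposited a length per gene and library in bases, which differs between libraries for the same gene. The log2 of this mean transcript length was compared between the SNK-10 arms with limma, a test added after the data had been seen. It covered the 5621 genes with at least 50 counts in each of the 18 libraries and a length that differed between libraries. Genes of constant length were left out, so the shares below are not of all well-counted genes. With icaritin 189 genes (3.36%) had a shorter and 98 (1.74%) a longer mean transcript. Leaving out single libraries gave 133 to 168 shorter and 76 to 96 longer genes, and a minimum of 200 counts gave 168 and 87 of 3912. In SNT-8 there were 130 and 102, and in SNT-16 64 and 43. The genes below were chosen after their values were seen.

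The largest shortening named here was that of RGL4, an exchange factor of the Ral family, from 2138, 2209 and 2335 bases with DMSO to 1196, 1484 and 1218 bases with icaritin (log2 change -0.78, SE 0.0611, adjusted p = 5.13e-06 by limma). The arms did not overlap. In SNT-8 and SNT-16 its length moved by -0.02 and -0.01, and the difference between SNK-10 and their mean was -0.77 (adjusted p = 0.000371 by limma). DIDO1, a chromatin reader gene, went from 6217, 6548 and 6257 bases to 4040, 4170 and 4038 bases, with -0.54 and -0.36 on the log2 scale in the SNT lines, and its level in SNK-10 changed by -0.90. ST8SIA4, which adds polysialic acid to proteins, went from 6060, 6252 and 6074 bases to 3979, 3856 and 4186 bases, more than in the SNT lines (difference -0.30, adjusted p = 0.00934 by limma). ENTPD1, the ectonucleotidase CD39, went from 8286, 8507 and 8442 bases to 6188, 6252 and 5869 bases while its level rose by 0.16, a call lost without DMSO replicate 3 or icaritin replicate 2.

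CFLAR, an inhibitor of CASP8 activation at death receptors, is a case where the length moved and the level did not pass. Its length went from 5985, 6503 and 6098 bases to 4947, 5192 and 4514 bases (-0.34, adjusted p = 0.00130 by limma), and its level had a log2 change of -0.06 in counts (adjusted p = 0.288 by edgeR). Among longer genes, SERINC5, a membrane protein gene, lengthened by 0.48 on the log2 scale as its level rose by 1.20, PIAS2, a SUMO ligase gene, by 0.55 and NASP, a histone chaperone gene, by 0.20. How the lengths were computed is not given in the sources used here, and which transcripts of these genes changed was not tested.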
